A study of Mus musculus with 12 samples.

Results

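The genes described are 35 genes of the endoplasmic reticulum (ER) that fold, modify, import or dispose of proteins there, together with the sensors and factors of the unfolded protein response. They were taken from a list of named genes, which was chosen with earlier results of these data known. All 35 were found by symbol among the 12786 genes that the deposited tables list in at least 1 pair of groups, and all were also among the 12443 listed in all 3. RNA-seq had been made from GT1-7 cells, an established line of mouse hypothalamic neurons that secrete gonadotropin-releasing hormone, in 3 groups of 4 samples. The cells of every group were grown in DMEM with 10% fetal bovine serum. The Klf4 siRNA group was transfected for 24 h with lipofectamine and an siRNA that targets Klf4, which encodes a DNA-binding zinc finger protein, in Opti-MEM I medium. The Scramble group received a scrambled siRNA in the same way. The Vehicle group, for which no transfection is stated, went without serum for 6 h and then stood for 1 h in DMEM free of Ca2+. Scramble and Vehicle thus differ in siRNA, lipid, medium, serum and calcium at once, and the parts of these in a difference cannot be told apart. Target sequences of the siRNAs were not given in the sources used here. Loss of Klf4 cannot be told apart from other effects of either siRNA. Nothing says that the 4 samples of a group were separate cultures, so the p-values measure the spread between these samples, which may be technical.

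Proteins that enter the ER are folded by chaperones, many of which bind calcium, and are joined by disulfide bonds and sugar chains. When unfolded proteins build up, or when the ER loses the calcium its chaperones need, the sensors ATF6, IRE1 (gene Ern1) and PERK (gene Eif2ak3) start the unfolded protein response. Cleaved ATF6 and the XBP1 protein made from mRNA that IRE1 has spliced raise transcription of chaperones, folding enzymes and the machinery of ER-associated degradation (ERAD), which returns misfolded proteins to the cytosol for the proteasome. PERK lowers protein synthesis and turns on ATF4. Secretory cells such as neuroendocrine neurons rely on these genes to process their hormone precursors.

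Klf4 siRNA libraries held 30041486 to 33481453 counts, Scramble libraries 25992363 to 39674984 and Vehicle libraries 28451562 to 35560442. Klf4 itself was low, at 1.34, 0.928, 1.80 and 1.46 CPM (counts per library size after TMM scaling of all 12 samples) in the Klf4 siRNA samples, 4.61, 4.45, 3.55 and 3.43 in Scramble and 5.56, 4.27, 4.71 and 4.58 in Vehicle. Every Klf4 siRNA sample lay below every Scramble and Vehicle sample, and Scramble overlapped Vehicle. The log2 fold change of Klf4 was -1.53 for Klf4 siRNA over Scramble (SE 0.19, edgeR adjusted p 5.77e-05) and -0.24 for Scramble over Vehicle (adjusted p 0.157). A two-sided exact permutation test gave 0.0286 for Klf4 siRNA against Scramble, the smallest p that 4 against 4 samples allow. Of 10 marker genes chosen for the line, 8 were listed, Gnrh1 among them, and Six3 and Snap25 were not in the tables. The 8 markers summed to 1430 to 1578 CPM with Klf4 siRNA, 2431 to 2806 with Scramble and 1514 to 1681 in Vehicle. Gnrh1 held the most of that sum, at 745 ± 66.1 CPM with Klf4 siRNA, 1688 ± 139.5 with Scramble and 676 ± 63.6 in Vehicle (SD, n = 4 each). The markers moved in both directions. In Scramble relative to Vehicle 5 of the 8 rose while Six6 and Isl1 fell (25% lower and 62.5% higher, all genes 26.6% and 27.3%). In Klf4 siRNA relative to Scramble 6 fell (75% lower and 0% higher, all genes 17.5% and 18.5%). In Klf4 siRNA relative to Vehicle 2 rose and 4 fell (50% lower and 25% higher, all genes 21.3% and 24.1%). Markers of other cell types were in part listed, with Gfap, Aqp4, Mog, Aif1, Ptprc, Pecam1 and Cdh5 in no table. Neurons in general had 2 of 4 markers listed, summing to 152 to 159 CPM with Klf4 siRNA, 183 to 215 with Scramble and 110.1 to 122 in Vehicle. Astrocytes had 1 of 5 markers listed, summing to 20.4 to 26.2 CPM with Klf4 siRNA, 10.3 to 13.8 with Scramble and 14.1 to 20.5 in Vehicle. The oligodendrocyte lineage had 3 of 5 markers listed, summing to 14.6 to 16.7 CPM with Klf4 siRNA, 17.1 to 19.1 with Scramble and 29.5 to 38.4 in Vehicle. Microglia and macrophages had 1 of 6 markers listed, summing to 28.8 to 32.6 CPM with Klf4 siRNA, 24.9 to 27.3 with Scramble and 34.6 to 41.9 in Vehicle. Endothelium had 2 of 4 markers listed, summing to 15.5 to 20.7 CPM with Klf4 siRNA, 33.6 to 41.8 with Scramble and 47.9 to 54.6 in Vehicle. Fibroblasts and pericytes had 5 of 6 markers listed, summing to 86.5 to 98.6 CPM with Klf4 siRNA, 111 to 119 with Scramble and 149 to 158 in Vehicle. Klf4 siRNA samples 1 and 4 held 25825 and 10572 counts of the gene model Gm10800, against 687 and 259 in samples 2 and 3 and at most 238 in any Scramble or Vehicle sample. For the ER genes described, results without Klf4 siRNA samples 1 and 4 are given where a call or a sign changed. The part of the marker differences in the results below was not tested.

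Most of the 35 genes were lower in both siRNA groups than in Vehicle, while in Klf4 siRNA against Scramble 12 were lower, at most by 0.44 on the log2 scale (Hyou1), and 3 higher, at most by 0.46 (Ero1l), where 17.5% of all genes were called lower and 18.5% higher. Together they held 1.09% ± 0.0338 of all counts with Klf4 siRNA, 1.20% ± 0.035 with Scramble and 1.85% ± 0.0284 in Vehicle (SD, n = 4 each). The 3 groups did not overlap in this share, which was 1.06% to 1.14% with Klf4 siRNA, 1.16% to 1.23% with Scramble and 1.83% to 1.90% in Vehicle. Without Hspa5 the share was 0.949% ± 0.0279 with Klf4 siRNA, 1.03% ± 0.0213 with Scramble and 1.37% ± 0.00757 in Vehicle. Leaving Hspa5 out narrowed the gap between Scramble and Vehicle to 0.336 percentage points, against 0.658 with it, and the gap between Klf4 siRNA and Scramble to 0.0823, against 0.107 with it. Counts in bulk RNA cannot tell less of an mRNA per cell from fewer cells that make it.

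**Figure D1:**
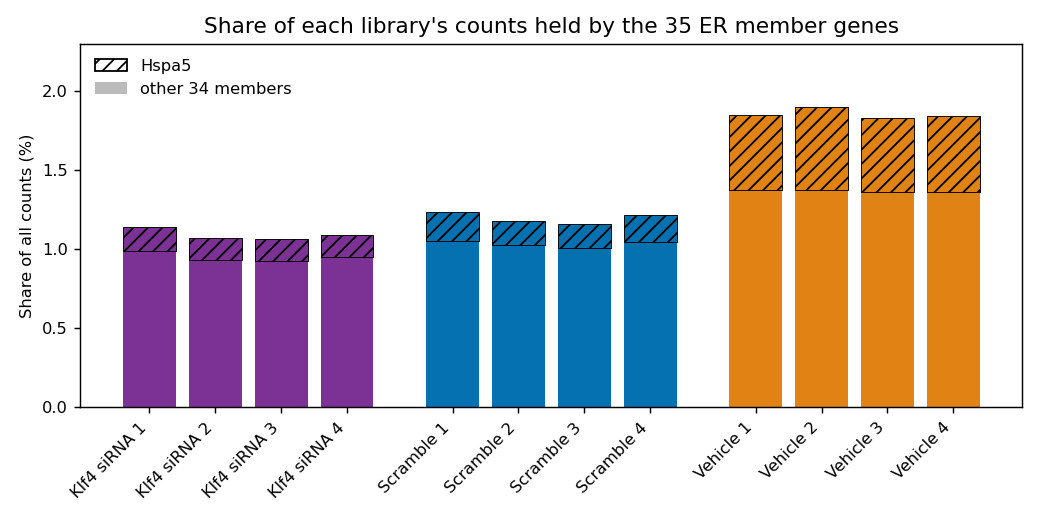
Bars give the percent of each library's counts that fell on the 35 ER genes (y axis), for 4 Klf4 siRNA, 4 Scramble and 4 Vehicle samples, with Hspa5 hatched on top of the other members. The Klf4 siRNA bars reach from 1.06% to 1.14%, the Scramble bars from 1.16% to 1.23% and the Vehicle bars from 1.83% to 1.90%.

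In Scramble against Vehicle, 24 of the 35 genes fell, none rose and 11 did not pass the test (edgeR adjusted p under 0.05, adjusted over all genes). Over all 12633 genes tested there, 26.6% were called lower and 27.3% higher. The unadjusted p was under 0.05 for 0 of the 35 genes in the upward direction, and DESeq2 also called 0 higher. In Klf4 siRNA against Vehicle, 27 fell, none rose and 8 did not pass, where 21.3% of 12684 genes were called lower and 24.1% higher. There too 0 were higher at an unadjusted p under 0.05, and DESeq2 called 0. In Klf4 siRNA against Scramble, 12 fell, 3 rose and 20 did not pass, where 17.5% of 12663 genes were called lower and 18.5% higher. The 3 upward calls became 1 without Klf4 siRNA sample 2, without sample 3, without Scramble sample 2 or without Scramble sample 3, while the downward calls stayed between 10 and 14 whichever library was left out. With Klf4 siRNA samples 1 and 4 both left out, a setting chosen after earlier results of these data were known, 4 were called higher and 15 lower in Klf4 siRNA against Scramble and 26 lower in Klf4 siRNA against Vehicle. Of all genes, 4694 and 4856 were then called in either direction in these comparisons, against 4561 and 5755 with all samples.

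The median log2 fold change of the 35 genes was -0.50 for Klf4 siRNA over Vehicle, -0.40 for Scramble over Vehicle and -0.08 for Klf4 siRNA over Scramble. Over all genes tested the medians were 0.02, 0.01 and -0.0002. In Scramble, 6 members were called and at least 2-fold lower than in Vehicle, against 2.55% of all genes. In Klf4 siRNA, 7 were called and at least 2-fold lower than in Vehicle, against 2.63% of all genes. At 1.5-fold the counts were 15 for Scramble (6.15% of all genes) and 17 for Klf4 siRNA (6.13%). None of the 15 members called between Klf4 siRNA and Scramble reached 1.5-fold (3.46% of all genes were that much lower). All 4 Scramble samples lay below all 4 Vehicle samples for 23 members (23.9% of all genes), and all 4 Klf4 siRNA samples lay below all 4 Vehicle samples for 27 (20.4% of all genes). Between Klf4 siRNA and Scramble, 13 members lay below without overlap (17.2% of all genes) and 3 above (17.4%). The comparisons share samples, so they are not independent of each other. The highest group mean was in Klf4 siRNA for 3 members, in Scramble for 2 and in Vehicle for 30. Over all genes listed, the highest mean was in Klf4 siRNA for 30.1%, in Scramble for 33.3% and in Vehicle for 36.7%.

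**Figure D2:**
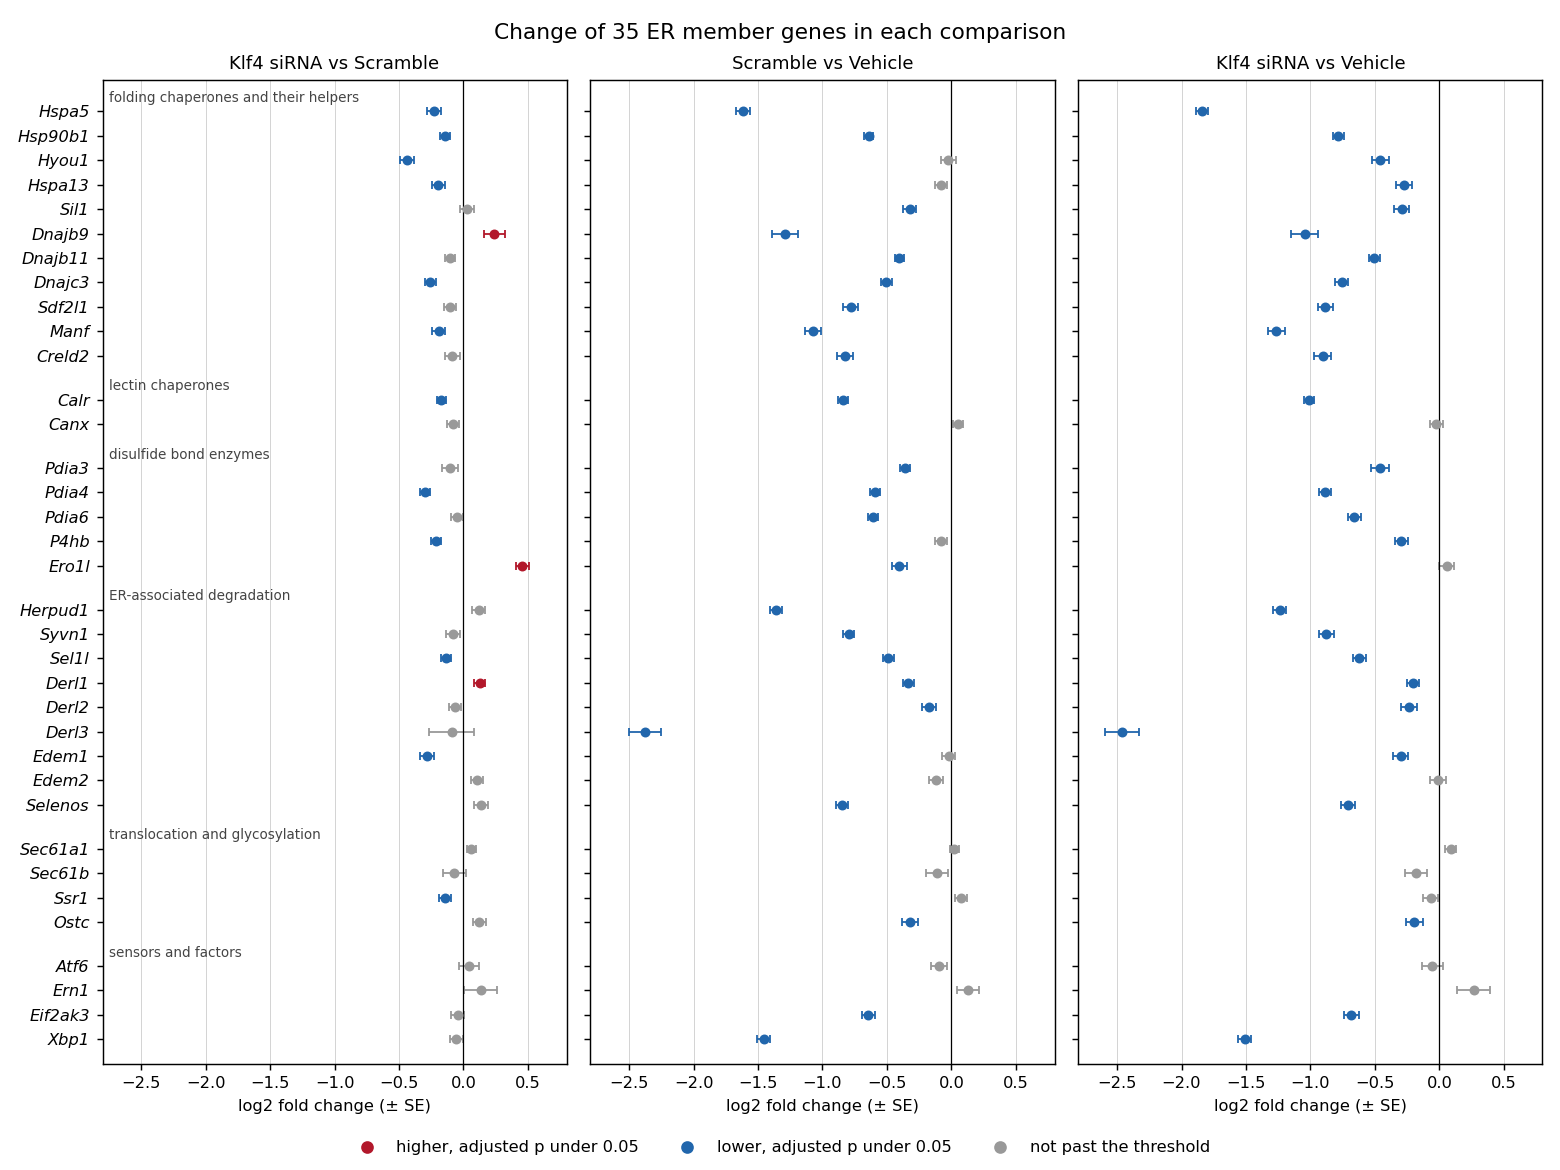
Points give the log2 fold change (x axis) of each of the 35 ER genes (rows, ordered by role) for Klf4 siRNA over Scramble, Scramble over Vehicle and Klf4 siRNA over Vehicle, with bars of 1 SE. Blue and red mark genes called lower and higher. Values for the comparisons with Vehicle reach -2.38 and -2.46 (Derl3), while those for Klf4 siRNA over Scramble lie between -0.44 (Hyou1) and 0.46 (Ero1l).

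ATF6 and XBP1 are known to act at the promoters of some of these genes, and their binding was not measured here. Sequences from 250 bases before to 50 bases after the start were available from RefSeq (GRCm38.p6, the assembly of mm10) for 27 of the 35 genes, Ero1l by its synonym Ero1a. They were searched on both strands for the ER stress response element (ERSE, CCAAT and CCACG with 9 bases of any kind between them, bound by ATF6 with NF-Y), for ERSE-II (ATTGG and CCACG with 1 base between them) and for the unfolded protein response element (UPRE, TGACGTGG). In all windows searched, 3 matches of one motif overlapped a match of another. ERSE was found in 9 of the 27 (33.3%), against 37 of 27025 genes with such a window (0.137%), ERSE-II in 2 (7.41%), against 12 genes (0.0444%), and the UPRE in 0 of 27, against 193 genes (0.714%). ERSE was first defined from promoters of ER chaperone genes, Hspa5, Hsp90b1 and Calr among them, so its share here is a description. The matches are shown for the members that hold one, each read on the strand named, with the fixed bases of the motif in capitals.
Hspa5 ERSE, chr2:34772025-34772043, plus strand: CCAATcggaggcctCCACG
Hsp90b1 ERSE, chr10:86705638-86705656, minus strand: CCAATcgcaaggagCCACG
Hsp90b1 ERSE, chr10:86705533-86705551, plus strand: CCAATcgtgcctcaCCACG
Dnajb11 ERSE-II, chr16:22857852-22857862, plus strand: ATTGGcCCACG
Dnajc3 ERSE, chr14:118937827-118937845, plus strand: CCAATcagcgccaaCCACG
Creld2 ERSE, chr15:88819520-88819538, minus strand: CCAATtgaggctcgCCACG
Calr ERSE, chr8:84847075-84847093, plus strand: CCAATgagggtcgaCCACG
Canx ERSE, chr11:50325800-50325818, minus strand: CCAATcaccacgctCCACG
Pdia6 ERSE, chr12:17266491-17266509, plus strand: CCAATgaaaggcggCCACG
Herpud1 ERSE-II, chr8:94386377-94386387, plus strand: ATTGGgCCACG
Syvn1 ERSE, chr19:6046532-6046550, plus strand: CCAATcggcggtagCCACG
Derl3 ERSE, chr10:75893242-75893260, minus strand: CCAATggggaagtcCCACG

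The matches lay at different distances from the start. In Hspa5 the ERSE began 65 bases before it, in Syvn1 44, in Pdia6 98, in Dnajc3 105 and in Canx 145, on the strand of the gene. The match in Creld2 (126 bases before), Calr (162) and Derl3 (156) ran against the gene. Hsp90b1 held 2, at 212 bases along the gene and at 107 bases against it. ERSE-II began 52 bases before the start of Herpud1 and 8 bases after that of Dnajb11. A match of letters is a description, not a shown site of binding. The whole windows of 5 genes follow, 300 bases each, on the strand of the gene: Hspa5 and Derl3 hold an ERSE and fell steeply, Herpud1 holds an ERSE-II, Canx holds an ERSE and did not pass the test in any comparison, and Xbp1 fell without a match. Capitals mark the fixed bases of each match, which read in reverse (CGTGG to ATTGG) in Derl3.
Hspa5 promoter, chr2:34771840-34772139, plus strand: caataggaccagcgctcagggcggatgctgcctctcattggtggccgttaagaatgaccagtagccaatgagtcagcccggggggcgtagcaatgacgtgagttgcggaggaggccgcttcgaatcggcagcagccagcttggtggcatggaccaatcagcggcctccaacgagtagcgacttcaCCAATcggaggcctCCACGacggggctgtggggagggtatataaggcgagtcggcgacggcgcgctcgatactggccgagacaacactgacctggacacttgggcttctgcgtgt
Derl3 promoter, chr10:75893148-75893447, plus strand: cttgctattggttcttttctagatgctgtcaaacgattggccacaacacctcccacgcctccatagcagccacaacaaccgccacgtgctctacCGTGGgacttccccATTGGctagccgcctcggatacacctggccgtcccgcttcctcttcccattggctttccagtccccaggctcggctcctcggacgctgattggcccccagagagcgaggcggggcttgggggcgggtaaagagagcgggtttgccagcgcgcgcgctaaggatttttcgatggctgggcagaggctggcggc
Herpud1 promoter, chr8:94386179-94386478, plus strand: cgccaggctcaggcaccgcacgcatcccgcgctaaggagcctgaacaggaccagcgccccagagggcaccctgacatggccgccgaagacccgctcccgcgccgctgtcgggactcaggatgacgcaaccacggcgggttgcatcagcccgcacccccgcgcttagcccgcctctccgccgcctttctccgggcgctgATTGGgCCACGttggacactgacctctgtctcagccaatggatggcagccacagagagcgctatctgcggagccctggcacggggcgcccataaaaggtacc
Canx promoter, chr11:50325624-50325923, minus strand: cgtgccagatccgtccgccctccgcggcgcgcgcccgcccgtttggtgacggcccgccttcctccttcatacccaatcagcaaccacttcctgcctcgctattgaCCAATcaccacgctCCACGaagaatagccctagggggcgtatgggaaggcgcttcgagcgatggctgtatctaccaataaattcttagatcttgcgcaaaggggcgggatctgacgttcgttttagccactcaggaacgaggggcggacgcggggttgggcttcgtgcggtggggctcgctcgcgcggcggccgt
Xbp1 promoter, chr11:5520391-5520690, plus strand: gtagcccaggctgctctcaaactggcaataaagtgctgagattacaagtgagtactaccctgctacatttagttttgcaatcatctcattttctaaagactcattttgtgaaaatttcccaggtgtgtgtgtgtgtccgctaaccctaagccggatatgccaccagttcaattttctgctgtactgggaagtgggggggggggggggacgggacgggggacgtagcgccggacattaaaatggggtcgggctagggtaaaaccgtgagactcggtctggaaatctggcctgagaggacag

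Of the sensors and factors, Xbp1 and Eif2ak3 fell in both siRNA groups relative to Vehicle, while Atf6 and Ern1 did not pass the test in any comparison. Xbp1 (chr11:5520659-5525893 on mm10), the factor whose mRNA IRE1 splices, stood at 63.3, 64.5, 65.1 and 61.1 CPM in the Klf4 siRNA samples, 70.8, 62.6, 64.6 and 66.9 in Scramble and 185, 182, 178 and 184 in Vehicle. The Vehicle samples were all far above the others, and Klf4 siRNA overlapped Scramble. Its log2 fold change was -1.46 (SE 0.05, adjusted p 4.70e-11) for Scramble over Vehicle and -1.51 (SE 0.05) for Klf4 siRNA over Vehicle, and -0.06 for Klf4 siRNA over Scramble (95% interval -0.16 to 0.04). Gene counts do not part spliced from unspliced Xbp1. Eif2ak3, the gene of PERK, was read at 60.8, 63.9, 66.0 and 66.4 CPM in the Klf4 siRNA samples, 68.8, 68.3, 65.2 and 63.6 in Scramble and 96.9, 109, 105 and 104 in Vehicle. Again every sample of both siRNA groups lay below every Vehicle sample. The fold change was -0.64 (SE 0.05, adjusted p 2.62e-07) for Scramble over Vehicle and -0.68 (SE 0.06) for Klf4 siRNA over Vehicle. The gene model Gm43292 covers 8.05% of the exon bases of Eif2ak3 on the opposite strand, and the library kit does not mark strand, so reads in that overlap cannot be assigned, and their number was not measured.

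Atf6 gave 42.4, 39.6, 38.0 and 49.1 CPM in the Klf4 siRNA samples, 39.2, 40.9, 44.0 and 40.8 in Scramble and 42.4, 48.8, 42.8 and 42.5 in Vehicle, with all 3 groups overlapping. Its fold change was -0.10 for Scramble over Vehicle (95% interval -0.22 to 0.02, adjusted p 0.203). Between Klf4 siRNA and Scramble it was 0.04, which changed sign to -0.08 without Klf4 siRNA samples 1 and 4. Ern1 was among the lowest of the 35 genes, at 11.4, 15.9, 13.5 and 18.2 CPM in the Klf4 siRNA samples, 15.1, 13.5, 12.1 and 13.2 in Scramble and 11.7, 13.1, 12.4 and 12.3 in Vehicle. Its spread was widest in Klf4 siRNA, where samples 1 and 4 were the lowest and highest. The fold change of Ern1 for Klf4 siRNA over Vehicle was 0.27 (adjusted p 0.113), and without Klf4 siRNA sample 1 it was 0.35 and passed the test (adjusted p 0.0170). ATF6 and IRE1 are switched on by cleavage and by self-phosphorylation, which mRNA counts do not show.

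Of the 11 folding chaperones and their helpers, 9 fell in Scramble (81.8% lower and 0% higher, all genes 26.6% and 27.3%) and all 11 in Klf4 siRNA (100% lower and 0% higher, all genes 21.3% and 24.1%) relative to Vehicle. Against Scramble, 6 fell, 1 rose and 4 did not pass in Klf4 siRNA (54.5% lower and 9.09% higher, all genes 17.5% and 18.5%). Hspa5 (chr2:34771970-34777547) encodes BiP, the HSP70 of the ER that also holds the sensors inactive. Its levels were 1470, 1371, 1326 and 1366 CPM in the Klf4 siRNA samples, 1780, 1539, 1501 and 1694 in Scramble and 4882, 5351, 4806 and 4945 in Vehicle. The 3 groups were apart from each other, with Vehicle highest and Klf4 siRNA lowest. Hspa5 was 3.07-fold higher in Vehicle than in Scramble, a log2 fold change of -1.62 (SE 0.06, adjusted p 7.99e-11) for Scramble over Vehicle. For Klf4 siRNA the change was -1.84 (SE 0.05, adjusted p 1.96e-11) over Vehicle and -0.23 (SE 0.05, adjusted p 0.00488) over Scramble. Hspa5 had more counts than any other gene in each of the 4 Vehicle samples, while its rank by counts lay between 25 and 26 in the Klf4 siRNA samples and between 14 and 23 in Scramble.

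Hsp90b1, the HSP90 of the ER (GRP94), was read at 1349, 1238, 1242 and 1267 CPM in the Klf4 siRNA samples, 1440, 1410, 1363 and 1441 in Scramble and 2215, 2188, 2275 and 2146 in Vehicle. The order was the same as for Hspa5, with no overlap between groups and smaller steps. The change was -0.64 (SE 0.04, adjusted p 8.25e-09) for Scramble over Vehicle and -0.14 (SE 0.04, adjusted p 0.00831) for Klf4 siRNA over Scramble. An opposite-strand transcript, 1810014B01Rik, shares 10.3% of the exon bases of Hsp90b1. Manf, a secreted protein that binds BiP in the ER, gave 138, 147, 148 and 141 CPM in the Klf4 siRNA samples, 158, 166, 159 and 176 in Scramble and 390.2, 317, 345 and 334 in Vehicle. It fell by 1.07 on the log2 scale in Scramble relative to Vehicle (SE 0.06) and by 1.26 in Klf4 siRNA relative to Vehicle (SE 0.06). Its change for Klf4 siRNA over Scramble was -0.19 (SE 0.05, adjusted p 0.00780). Exons of 4930524O07Rik and Dcaf1 overlap those of Manf on the other strand. Dnajc3, a J-domain protein that helps BiP (p58IPK), stood at 149.7, 144, 146 and 155 CPM in the Klf4 siRNA samples, 174, 184, 177 and 179 in Scramble and 255, 241, 261 and 257 in Vehicle. Its groups were also apart, with changes of -0.50 (SE 0.04) for Scramble over Vehicle and -0.26 (SE 0.04, adjusted p 0.000381) for Klf4 siRNA over Scramble.

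Hyou1 (chr9:44379490-44392369), the large HSP70-related chaperone GRP170 that releases nucleotide from BiP, behaved otherwise. It was read at 92.4, 106, 105 and 102 CPM in the Klf4 siRNA samples, 144, 136, 139 and 134 in Scramble and 129, 155, 136 and 142 in Vehicle. Scramble lay within the range of Vehicle, and all 4 Klf4 siRNA samples lay below both. The fold change was -0.02 for Scramble over Vehicle (95% interval -0.13 to 0.09) and -0.44 (SE 0.05, adjusted p 4.25e-05) for Klf4 siRNA over Scramble, the largest fall of any member in that comparison. Hspa13, another HSP70-like protein of the ER, fell relative to Scramble and to Vehicle in the Klf4 siRNA group, and did not pass the test in Scramble against Vehicle. It ranged over 170.1 to 198 CPM with Klf4 siRNA, 206 to 219 with Scramble and 211 to 241 in Vehicle. Its change was -0.20 (SE 0.05, adjusted p 0.00764) for Klf4 siRNA over Scramble and -0.08 for Scramble over Vehicle (95% interval -0.18 to 0.02).

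The other helpers fell relative to Vehicle in both siRNA groups. Dnajb9, the J-domain protein ERdj4, ranged over 28.1 to 34.5 CPM with Klf4 siRNA, 25.0 to 29.4 with Scramble and 58.7 to 81.9 in Vehicle. Its change was -1.29 (SE 0.10) for Scramble over Vehicle, and it rose by 0.24 (SE 0.08, adjusted p 0.0371) on the log2 scale with the Klf4 siRNA relative to Scramble. That rise came with overlapping groups, and it did not pass when Klf4 siRNA sample 2, 3 or 4 or Scramble sample 2 or 3 was left out (adjusted p from 0.0697 to 0.114). Sdf2l1, part of a J-domain protein complex with BiP, changed by -0.78 (SE 0.06) and Creld2, an ER protein with disulfide isomerase activity, by -0.82 (SE 0.06) for Scramble over Vehicle. Neither passed between Klf4 siRNA and Scramble, at log2 values of -0.10 and -0.09. Dnajb11, the J-domain protein ERdj3, ranged over 331 to 374 CPM with Klf4 siRNA, 375 to 382 with Scramble and 491 to 505 in Vehicle. It fell in Scramble relative to Vehicle (-0.40, SE 0.03), and all its Klf4 siRNA samples were below all Scramble samples without the test being passed (-0.10, adjusted p 0.0629). Without Klf4 siRNA sample 1 it passed (adjusted p 0.0114), as it did with DESeq2 (adjusted p 0.0451). With Klf4 siRNA samples 1 and 4 both left out it passed too (-0.11, adjusted p 0.0288). Sil1, a nucleotide exchange factor of BiP, changed by -0.32 (SE 0.05) for Scramble over Vehicle, and its value for Klf4 siRNA over Scramble was 0.03 (95% interval -0.08 to 0.13).

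**Figure D3:**
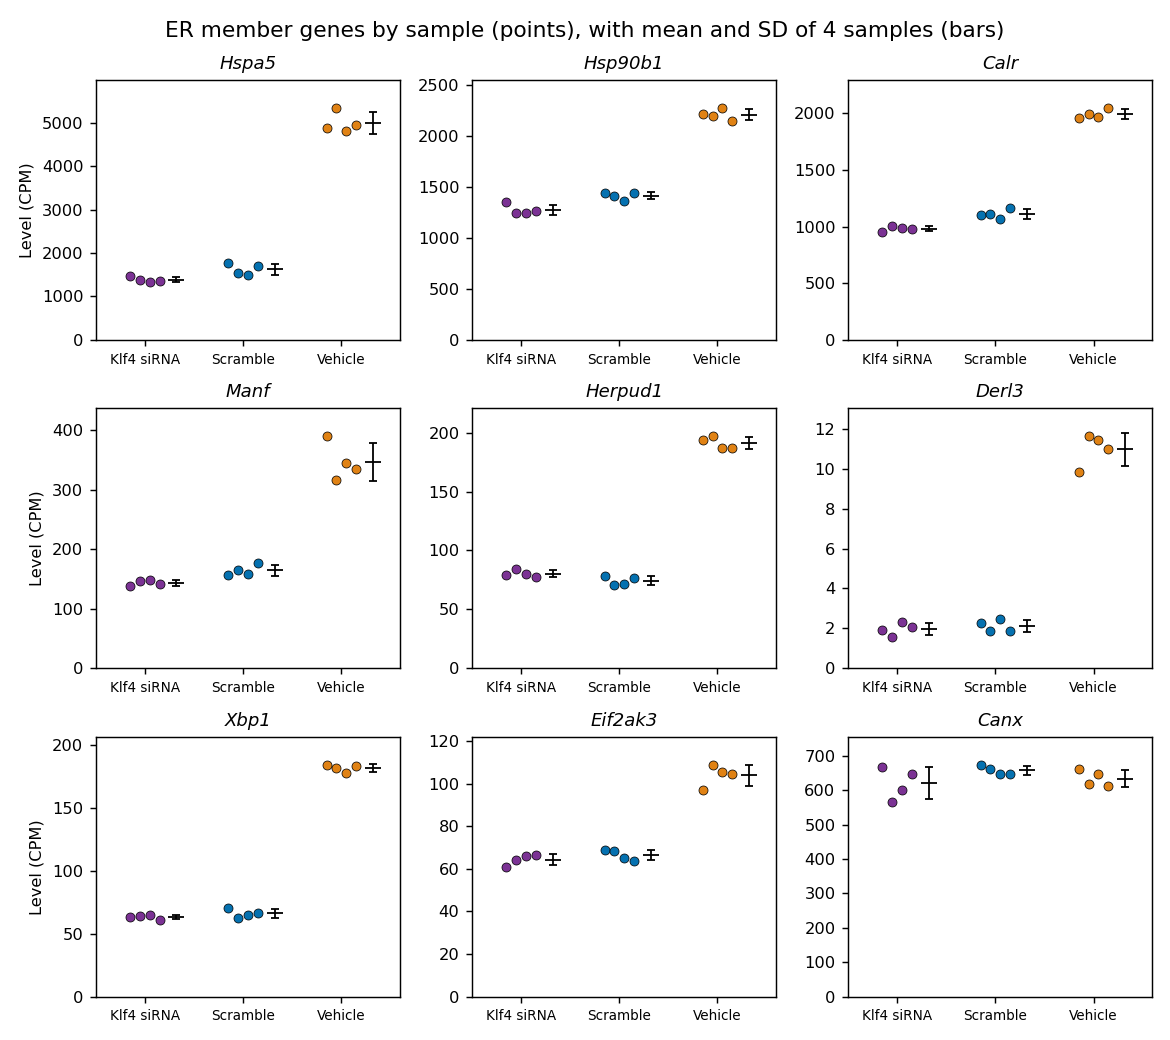
Points give the level in CPM (y axis, from 0) of 9 ER genes in each Klf4 siRNA, Scramble and Vehicle sample, with the mean and SD of the 4 samples as a bar beside them. Vehicle stands above both siRNA groups for the first 8 genes, from Hspa5 (1383 ± 61.0 with Klf4 siRNA, 1629 ± 131 with Scramble and 4996 ± 243 in Vehicle) to Eif2ak3, and the groups overlap for Canx.

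The lectin chaperones, a pair that holds sugar-bearing proteins while they fold, parted. Calr, calreticulin, is soluble and binds much of the calcium of the ER. It was read at 954, 1007, 986 and 982 CPM in the Klf4 siRNA samples, 1099, 1113, 1068 and 1165 in Scramble and 1954, 1997, 1965 and 2050 in Vehicle. No Klf4 siRNA sample reached the lowest Scramble sample, and no Scramble sample the lowest Vehicle sample. The change was -0.84 (SE 0.04, adjusted p 9.50e-10) for Scramble over Vehicle, -1.01 (SE 0.04) for Klf4 siRNA over Vehicle and -0.17 (SE 0.04, adjusted p 0.00251) for Klf4 siRNA over Scramble. A processed pseudogene, Calr-ps, exists, and the handling of reads that match both was not given in the sources used here. Canx, calnexin, is the membrane-bound relative. Its levels were 668, 566, 599 and 646 CPM in the Klf4 siRNA samples, 674, 660.3, 647 and 648 in Scramble and 661, 616, 646 and 611 in Vehicle, with all groups overlapping. The change was 0.05 for Scramble over Vehicle (95% interval -0.02 to 0.13) and -0.02 for Klf4 siRNA over Vehicle (-0.13 to 0.08). Between Klf4 siRNA and Scramble it was -0.08 (adjusted p 0.216), and with Klf4 siRNA samples 1 and 4 left out it was -0.17 and passed (adjusted p 0.00390).

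Of the 5 disulfide bond enzymes, 4 fell in Scramble (80% lower and 0% higher, all genes 26.6% and 27.3%) and 4 in Klf4 siRNA (80% lower and 0% higher, all genes 21.3% and 24.1%) relative to Vehicle. With the Klf4 siRNA, 2 fell and 1 rose relative to Scramble (40% lower and 20% higher, all genes 17.5% and 18.5%). Ero1l (chr14:45283087-45318771), the oxidase that feeds disulfide bonds to the isomerases, stood at 166, 159.9, 149 and 161 CPM in the Klf4 siRNA samples, 126, 114, 111 and 114 in Scramble and 159.6, 149, 165 and 142 in Vehicle. Klf4 siRNA was above Scramble in all samples and overlapped Vehicle. Its change was 0.46 (SE 0.05, adjusted p 2.35e-05) for Klf4 siRNA over Scramble, -0.40 (SE 0.06, adjusted p 4.90e-05) for Scramble over Vehicle and 0.06 for Klf4 siRNA over Vehicle (95% interval -0.06 to 0.17). Pdia4, the isomerase ERp72, gave 364, 328, 336 and 332 CPM in the Klf4 siRNA samples, 406, 420.2, 416 and 432 in Scramble and 638, 609, 617 and 666 in Vehicle. The groups were all apart, at -0.59 (SE 0.04, adjusted p 6.04e-08) for Scramble over Vehicle, -0.89 (SE 0.05) for Klf4 siRNA over Vehicle and -0.30 (SE 0.04, adjusted p 0.000102) for Klf4 siRNA over Scramble. P4hb, protein disulfide isomerase itself, was read at 1140, 1155, 1108 and 1065 CPM in the Klf4 siRNA samples, 1360, 1288, 1249 and 1305 in Scramble and 1289, 1473, 1330 and 1422 in Vehicle. Scramble overlapped Vehicle (-0.08, 95% interval -0.17 to 0.01), and Klf4 siRNA lay below both, at -0.21 (SE 0.04, adjusted p 0.000834) over Scramble. Without Vehicle sample 1 the difference between Scramble and Vehicle was -0.11 and passed (adjusted p 0.0469).

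Pdia6, an isomerase that works with BiP, ranged over 787 to 899 CPM with Klf4 siRNA, 822 to 894 with Scramble and 1254 to 1377 in Vehicle. It fell in Scramble relative to Vehicle (-0.61, SE 0.04), and its change for Klf4 siRNA over Scramble was -0.05 (95% interval -0.14 to 0.04). Pdia3, the isomerase ERp57 that partners calnexin and calreticulin, ranged over 863 to 1092 CPM with Klf4 siRNA, 996 to 1026 with Scramble and 1209 to 1347 in Vehicle. It fell in Scramble relative to Vehicle (-0.36, SE 0.04). Klf4 siRNA sample 1 was the highest of both siRNA groups, while the other samples of its group lay below all Scramble samples. The change for Klf4 siRNA over Scramble was -0.10 (adjusted p 0.212), and without Klf4 siRNA sample 1 it was -0.18 and passed (adjusted p 0.00162). With Klf4 siRNA samples 1 and 4 both left out it was -0.21 and passed (adjusted p 0.000348).

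Among the 9 genes of ER-associated degradation, 7 fell in Scramble (77.8% lower and 0% higher, all genes 26.6% and 27.3%) and 8 in Klf4 siRNA (88.9% lower and 0% higher, all genes 21.3% and 24.1%) relative to Vehicle. Relative to Scramble, 2 fell and 1 rose in Klf4 siRNA, shares near those of all genes (22.2% lower and 11.1% higher, all genes 17.5% and 18.5%). Herpud1 (chr8:94386438-94395377), a membrane protein that organizes the degradation complex, was read at 79.4, 84.5, 80.5 and 77.5 CPM in the Klf4 siRNA samples, 78.2, 70.7, 71.8 and 76.7 in Scramble and 194, 197, 187 and 187 in Vehicle. Vehicle was above both siRNA groups in every sample. The change was -1.36 (SE 0.05, adjusted p 9.00e-11) for Scramble over Vehicle, -1.24 (SE 0.05) for Klf4 siRNA over Vehicle and 0.12 for Klf4 siRNA over Scramble (adjusted p 0.0853). Derl3 (chr10:75893413-75895941), a derlin of the channel that moves proteins out of the ER, was low, at 1.93, 1.58, 2.30 and 2.08 CPM in the Klf4 siRNA samples, 2.25, 1.87, 2.48 and 1.87 in Scramble and 9.82, 11.6, 11.4 and 11.0 in Vehicle. The Vehicle samples stood far above the rest, and Klf4 siRNA overlapped Scramble. Derl3 was 5.20-fold higher in Vehicle than in Scramble, the largest fold of the 35 genes, at a log2 fold change of -2.38 (SE 0.12, adjusted p 4.05e-09). For Klf4 siRNA over Vehicle it was -2.46 (SE 0.13).

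Syvn1, the ubiquitin ligase HRD1, gave 56.7, 64.9, 64.0 and 64.2 CPM in the Klf4 siRNA samples, 66.5, 63.9, 65.6 and 69.4 in Scramble and 115, 116, 118 and 113 in Vehicle. It fell in both siRNA groups relative to Vehicle, with changes of -0.80 (SE 0.04, adjusted p 1.01e-08) for Scramble and -0.88 (SE 0.06) for Klf4 siRNA. Selenos, a selenoprotein that recruits the ATPase p97 to the channel, stood at 88.9, 86.6, 81.8 and 76.9 CPM in the Klf4 siRNA samples, 73.9, 79.4, 74.2 and 77.6 in Scramble and 142, 132, 137 and 139 in Vehicle. Both siRNA groups lay below Vehicle, with changes of -0.85 (SE 0.05, adjusted p 6.73e-09) for Scramble and -0.71 (SE 0.06) for Klf4 siRNA. For Klf4 siRNA over Scramble its log2 fold change was 0.14 (adjusted p 0.0629), and without Klf4 siRNA sample 4 it passed (adjusted p 0.0222). With Klf4 siRNA samples 1 and 4 both left out it was 0.15 and passed (adjusted p 0.04535). Edem1, a lectin that picks misfolded glycoproteins for disposal, was read at 106, 107, 99.3 and 111 CPM in the Klf4 siRNA samples, 126, 134, 135 and 121 in Scramble and 139.8, 126, 129 and 130.2 in Vehicle. Scramble overlapped Vehicle (-0.02, 95% interval -0.12 to 0.08), and all Klf4 siRNA samples lay below both groups. The change for Klf4 siRNA over Scramble was -0.28 (SE 0.05, adjusted p 0.00111). Its relative Edem2 ranged over 120.3 to 132 CPM with Klf4 siRNA, 114 to 123 with Scramble and 118 to 137 in Vehicle and passed in no comparison. Its change was -0.12 for Scramble over Vehicle (adjusted p 0.0786), which passed without Vehicle sample 3 (adjusted p 0.0271).

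Sel1l, the partner of HRD1, ranged over 181 to 198 CPM with Klf4 siRNA, 201 to 209.7 with Scramble and 268 to 300.5 in Vehicle. It fell in Scramble relative to Vehicle (-0.49, SE 0.04) and in Klf4 siRNA relative to Scramble (-0.14, SE 0.04, adjusted p 0.0215). The step between Klf4 siRNA and Scramble missed the threshold when Klf4 siRNA sample 2 or 3 or Scramble sample 1, 2 or 4 was left out (adjusted p from 0.0523 to 0.0698). Derl1, another derlin, ranged over 172 to 186 CPM with Klf4 siRNA, 157 to 167 with Scramble and 199 to 211 in Vehicle. It fell in Scramble relative to Vehicle (-0.33, SE 0.04) and rose in Klf4 siRNA relative to Scramble (0.13, SE 0.04, adjusted p 0.0326). Leaving out any 1 of the 8 samples other than Klf4 siRNA sample 4 ended that call, at an adjusted p from 0.0508 to 0.0782. Derl2 ranged over 72.3 to 78.7 CPM with Klf4 siRNA, 76.8 to 84.5 with Scramble and 83.6 to 95.8 in Vehicle. It fell by a small step in Scramble relative to Vehicle (-0.17, SE 0.06, adjusted p 0.0179), which did not pass without Scramble sample 2, 3 or 4 or Vehicle sample 3 (adjusted p from 0.0551 to 0.0778). On the opposite strand, exons of Mis12 overlap 2.87% of the exon bases of Derl2, those of Mrpl49 1.87% of Syvn1 and an antisense model 3.14% of Sil1.

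Of the 4 genes of translocation and glycosylation, 1 fell in Scramble (25% lower and 0% higher, all genes 26.6% and 27.3%) and 1 in Klf4 siRNA (25% lower and 0% higher, all genes 21.3% and 24.1%) relative to Vehicle, and 1 in Klf4 siRNA relative to Scramble (25% lower and 0% higher, all genes 17.5% and 18.5%). Sec61a1, the pore of the channel through which proteins enter the ER, ranged over 396 to 427 CPM with Klf4 siRNA, 389 to 402 with Scramble and 378 to 399 in Vehicle. Its change was 0.02 for Scramble over Vehicle (95% interval -0.05 to 0.09) and 0.09 for Klf4 siRNA over Vehicle (adjusted p 0.102). The antisense model Gm44170 shares 8.16% of its exon bases. Sec61b, a small subunit of the same channel, ranged over 59.1 to 74.9 CPM with Klf4 siRNA, 58.7 to 76.8 with Scramble and 69.7 to 86.3 in Vehicle and passed in no comparison. For Klf4 siRNA over Vehicle it was -0.18 (adjusted p 0.104), and it passed without Klf4 siRNA sample 2 (adjusted p 0.0409). Ssr1, of the translocon-associated complex, ranged over 228 to 259.7 CPM with Klf4 siRNA, 263 to 271 with Scramble and 237 to 268 in Vehicle. It fell in Klf4 siRNA relative to Scramble (-0.14, SE 0.04, adjusted p 0.0258), a call lost without Klf4 siRNA sample 2 or 3 or Scramble sample 1, 2 or 4 (adjusted p from 0.0522 to 0.0787). Ostc, a subunit of the oligosaccharyltransferase that attaches sugar chains, ranged over 61.5 to 65.7 CPM with Klf4 siRNA, 56.3 to 60.5 with Scramble and 66.5 to 79.7 in Vehicle. It fell relative to Vehicle in Scramble (-0.32, SE 0.06, adjusted p 0.000737) and in Klf4 siRNA (-0.19, SE 0.07, adjusted p 0.0307). The fall in Klf4 siRNA did not pass without Klf4 siRNA sample 2 or Vehicle sample 1 or 3 (adjusted p from 0.0778 to 0.0905). Nor did that fall pass with Klf4 siRNA samples 1 and 4 both left out (-0.21, adjusted p 0.0819).

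Levels between genes were compared per length, from the RPKM values that the authors deposited. P4hb was the highest member in Klf4 siRNA (390.4 ± 13.9 RPKM) and in Scramble (454 ± 16.2), while Hspa5 was the highest in Vehicle (1181 ± 57.5; SD, n = 4). Among all listed genes, the mean RPKM of Hspa5 ranked 72 with Klf4 siRNA, 49 with Scramble and 8 in Vehicle. Calr was next in Vehicle, at 692 ± 14.9 RPKM, followed by Hsp90b1 at 547 ± 13.4, P4hb at 482 ± 29.4 and Pdia3 at 414 ± 20.1. In Scramble, Calr (386 ± 14.0 RPKM) and Hspa5 (385 ± 31.0) did not differ beyond their spread. The same held in Klf4 siRNA for Hspa5 (327 ± 14.4 RPKM) and Hsp90b1 (316 ± 12.8). The sensors stood at the low end, together with Derl2 and Derl3. In Vehicle, Eif2ak3 had 17.2 ± 0.836 RPKM, Atf6 4.78 ± 0.339 and Ern1 1.51 ± 0.0679. Derl3 ranked 10937 with Klf4 siRNA, 10865 with Scramble and 7531 in Vehicle. Xbp1 ranked 3513 with Klf4 siRNA, 3371 with Scramble and 1165 in Vehicle.

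Set against the promoter matches shown above, 8 of the 9 members with an ERSE fell in Scramble relative to Vehicle, and Canx was the exception. Their median log2 fold change was -0.80, and their range ran from -2.38 (Derl3) to 0.05 (Canx). Of the 18 members with a window and no ERSE, 12 fell, with a median of -0.40. They include both members with an ERSE-II, Herpud1 (-1.36) and Dnajb11 (-0.40), and also Xbp1 (-1.46), Dnajb9 (-1.29) and Selenos (-0.85), in which none of the 3 motifs was found. Outside the 35 genes, 10 tested genes held an ERSE in their window. Of these, 4 were called lower and 4 higher in Scramble than in Vehicle, with a median of 0.06. Among the 9824 tested genes with a window and no ERSE, 2623 (26.7%) were called lower and 2702 higher. The 8 members without a window were Hyou1, Hspa13, Sil1, Manf, Derl1, Sec61a1, Ostc and Atf6.

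**Figure D4:**
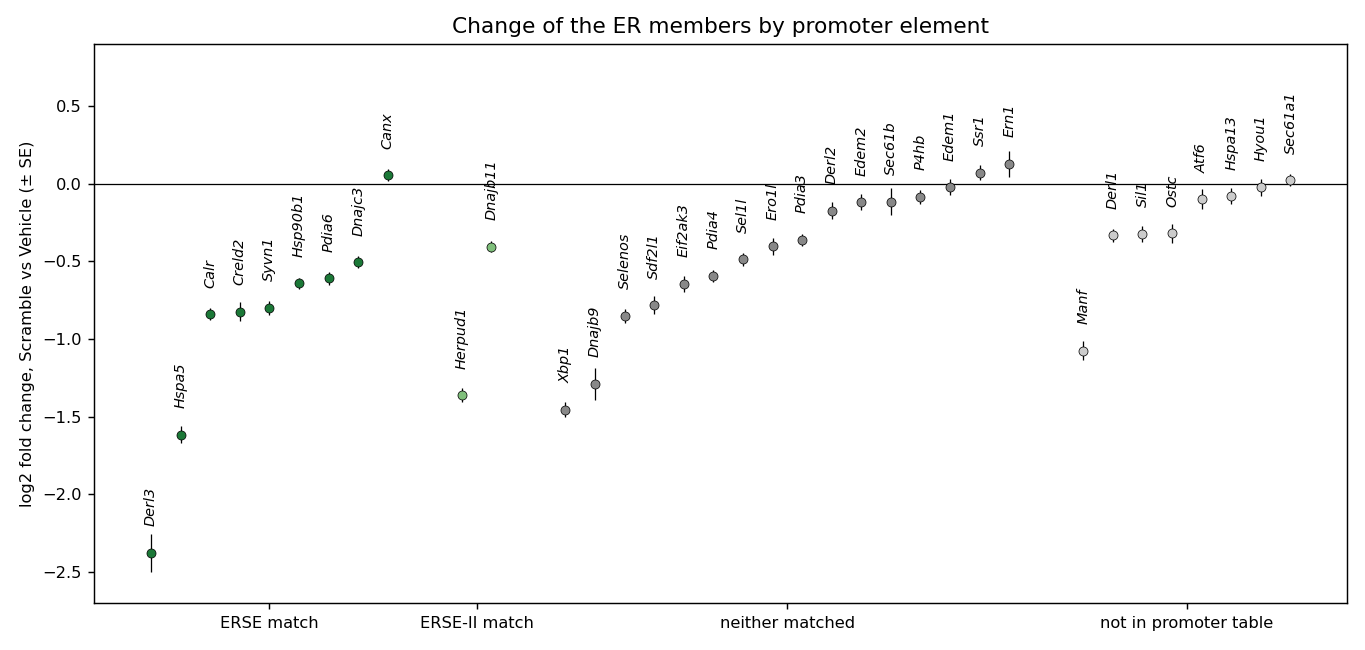
Points give the log2 fold change of Scramble over Vehicle (y axis, bars 1 SE) for the 35 ER genes, set side by side by the element matched in their 300-base promoter window. Of the 9 genes with an ERSE, 8 lie below 0 past the test, from -2.38 to -0.50, and Canx lies at 0.05.

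Genes around the 35 were read from 8 further lists, counted in the same tests. The list of the PERK-ATF4 branch had the largest medians of the 8, in size, in all 3 comparisons. That name is a label only, since the activity of PERK was not measured. The 6 genes of this list have 7 gene IDs, since Ddit3 is listed under a pair of IDs whose sharing of reads is not known. All 7 rose in Klf4 siRNA relative to Scramble (median 0.85, 0% lower and 100% higher, all genes 17.5% and 18.5%), and all 7 fell in Scramble relative to Vehicle (median -1.09, 100% lower and 0% higher, all genes 26.6% and 27.3%). In Klf4 siRNA against Vehicle, 4 fell and 3 did not pass (median -0.29, 57.1% lower and 0% higher, all genes 21.3% and 24.1%). Ppp1r15a, the GADD34 subunit that restores translation, changed by 0.85 (SE 0.05) for Klf4 siRNA over Scramble, -2.11 (SE 0.05) for Scramble over Vehicle and -1.25 (SE 0.05) for Klf4 siRNA over Vehicle. Trib3, a pseudokinase induced by ATF4, changed by 0.99 (SE 0.10) for Klf4 siRNA over Scramble and -1.28 (SE 0.09) for Scramble over Vehicle. Asns, asparagine synthetase, changed by 0.35 (SE 0.07) for Klf4 siRNA over Scramble and -0.44 (SE 0.06) for Klf4 siRNA over Vehicle. Atf4 itself changed by -0.88 (SE 0.06) for Scramble over Vehicle and -0.57 (SE 0.06) for Klf4 siRNA over Vehicle.

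Of 12 listed genes of the ER calcium store, 11 were tested between Klf4 siRNA and Scramble, where 6 fell and 1 rose (median -0.20, 54.5% lower and 9.09% higher, all genes 17.5% and 18.5%). The 1 rise was absent without Klf4 siRNA sample 3 or 4 or Scramble sample 1, 3 or 4. The falls included the calcium sensors Stim2 (-0.39, SE 0.05) and Stim1 (-0.36, SE 0.06), the calcium release channel Itpr1 (-0.47, SE 0.07) and the calcium-binding protein Rcn2 (-0.21, SE 0.04). In Scramble against Vehicle, 5 fell and 3 rose (median -0.07, 41.7% lower and 25% higher, all genes 26.6% and 27.3%). Rcn2 fell (-0.55, SE 0.04), as did the calcium pump Atp2a2 (-0.35, SE 0.06), while Itpr1 (0.46, SE 0.06) and Stim2 (0.31, SE 0.05) rose. In Klf4 siRNA against Vehicle, 6 fell and 2 rose (median -0.23, 50% lower and 16.7% higher, all genes 21.3% and 24.1%), with Rcn2 at -0.76 (SE 0.04), Atp2a2 at -0.46 (SE 0.06), the calcium-binding Calu at -0.31 (SE 0.05) and the calcium entry channel Orai1 at -0.47 (SE 0.09). The 2 rises became 1 without Klf4 siRNA sample 4.

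Most of the listed genes of transport from the ER to the Golgi were also lower in mRNA than in Vehicle. Of 15 genes, 9 fell and 1 rose in Scramble (median -0.22, 60% lower and 6.67% higher, all genes 26.6% and 27.3%), and 10 fell and none rose in Klf4 siRNA (median -0.20, 66.7% lower and 0% higher, all genes 21.3% and 24.1%). The 1 rise was lost without Scramble sample 3 or 4 or Vehicle sample 1, 3 or 4. Sec24d, a COPII coat subunit, changed by -0.40 (SE 0.05) for Scramble and -0.50 (SE 0.05) for Klf4 siRNA over Vehicle. For Copb1, a COPI coat subunit, the change in Scramble was -0.28 (SE 0.04), and for the cargo receptors Tmed10 and Surf4 it was -0.24 (SE 0.04) and -0.23 (SE 0.04). Against Scramble, 2 fell and none rose in Klf4 siRNA (median 0.01, 13.3% lower and 0% higher, all genes 17.5% and 18.5%), the COPII subunit Sec23b (-0.26, SE 0.05) and the COPII GTPase Sar1a (-0.20, SE 0.04). Without Klf4 siRNA sample 2 or 4, 1 rose.

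Of 24 genes of the translocon, signal peptidase and oligosaccharyltransferase, 12 fell and none rose in Scramble relative to Vehicle (median -0.15, 50% lower and 0% higher, all genes 26.6% and 27.3%), and 8 fell and none rose in Klf4 siRNA relative to Vehicle (median -0.10, 33.3% lower and 0% higher, all genes 21.3% and 24.1%). Ssr4 (-0.45, SE 0.06) and Ssr2 (-0.24, SE 0.04), partners of Ssr1, the translocation factor Sec62 (-0.48, SE 0.07) and the catalytic subunit Stt3a (-0.26, SE 0.04) had the smallest p-values. Of these 24, 5 rose and 2 fell in Klf4 siRNA relative to Scramble (median 0.05, 8.33% lower and 20.8% higher, all genes 17.5% and 18.5%). The share higher was near that of all genes and the share lower was under it. The falls were of Magt1, an oxidoreductase subunit of the oligosaccharyltransferase (-0.35, SE 0.04), and Tram1 (-0.16, SE 0.04), and the rises included Sec11c (0.18, SE 0.05) and Ssr2 (0.16, SE 0.04). The 5 rises became 3 without Klf4 siRNA sample 3 or Scramble sample 1.

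Of 21 genes of oxidative folding and proline isomerization, 10 fell and 3 rose in Scramble relative to Vehicle (median -0.11, 47.6% lower and 14.3% higher, all genes 26.6% and 27.3%), and the 3 became 5 without Vehicle sample 1. Txndc11 (-0.59, SE 0.06), Pdia5 (-0.42, SE 0.05) and Txndc5 (-0.32, SE 0.05), of the thioredoxin family, and the isomerase Ppib (-0.30, SE 0.05) were among the falls. In Klf4 siRNA against Vehicle, 7 fell and none rose (median -0.12, 33.3% lower and 0% higher, all genes 21.3% and 24.1%), although 1 rose without Vehicle sample 2, and P4ha2, a collagen prolyl hydroxylase, changed by -0.60 (SE 0.06). Between Klf4 siRNA and Scramble, 6 fell and 3 rose (median -0.05, 28.6% lower and 14.3% higher, all genes 17.5% and 18.5%), with Tmx4 at -0.43 (SE 0.05), P4ha2 at -0.31 (SE 0.06), Dnajc10 at -0.21 (SE 0.05) and Pdia5 at 0.24 (SE 0.05). Of 10 genes of glycoprotein folding, 3 fell and 2 rose in Scramble relative to Vehicle (median 0.01, 30% lower and 20% higher, all genes 26.6% and 27.3%), among them the glucosidase II subunits Prkcsh (-0.30, SE 0.04) and Ganab (0.21, SE 0.05), which went opposite ways. The lectin Mlec was 0.32 (SE 0.05) for Scramble over Vehicle and -0.41 (SE 0.05) for Klf4 siRNA over Scramble. The folding sensor Uggt1 fell in all 3 comparisons, at -0.20 (SE 0.04) for Scramble over Vehicle, -0.40 (SE 0.05) for Klf4 siRNA over Vehicle and -0.20 (SE 0.05) for Klf4 siRNA over Scramble. In all, 3 of these 10 fell and none rose both in Klf4 siRNA against Vehicle (median -0.0004, 30% lower and 0% higher, all genes 21.3% and 24.1%) and in Klf4 siRNA against Scramble (median -0.04, 30% lower and 0% higher, all genes 17.5% and 18.5%), and without Vehicle sample 2 there was 1 rise against Vehicle.

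Of 20 further ERAD genes, 3 fell and 3 rose in Scramble relative to Vehicle (median -0.05, 15% lower and 15% higher, all genes 26.6% and 27.3%), and the falls became 5 without Vehicle sample 1 or 3 and 6 without sample 2. Both shares were under those of all genes. The UBX-domain protein Ubxn4 (-0.34, SE 0.05) and the ubiquitin ligase Rnf139 (-0.33, SE 0.06) fell, and Erlin1, which marks IP3 receptors for degradation, rose (0.25, SE 0.04). In Klf4 siRNA, 7 fell and 5 rose relative to Vehicle (median -0.12, 35% lower and 25% higher, all genes 21.3% and 24.1%), which became 4 falls without Vehicle sample 3 and 3 rises without Klf4 siRNA sample 1 or Vehicle sample 4. Relative to Scramble, 2 fell and 3 rose (median -0.03, 10% lower and 15% higher, all genes 17.5% and 18.5%), with the ubiquitin-conjugating enzyme Ube2g2 at 0.19 (SE 0.05), its recruiter Aup1 at 0.37 (SE 0.04) and the ligase March6 at -0.28 (SE 0.07). Of 15 genes of ATF6 processing and other ER stress factors, 7 fell and 4 rose in Scramble relative to Vehicle (median -0.13, 46.7% lower and 26.7% higher, all genes 26.6% and 27.3%). The ATF6-related factor Creb3 (-0.64, SE 0.05), the calcium-binding Nucb2 (-0.35, SE 0.06) and the cell death protein Bax (-0.37, SE 0.05) fell, and the protease Ermp1 rose (0.39, SE 0.05). In Klf4 siRNA, 5 fell and 3 rose relative to Vehicle (median 0.04, 33.3% lower and 20% higher, all genes 21.3% and 24.1%), with 5 rises without Klf4 siRNA sample 1. Relative to Scramble, 4 rose and 1 fell (median 0.01, 6.67% lower and 26.7% higher, all genes 17.5% and 18.5%), with 2 falls without Klf4 siRNA sample 1. The proteases that cut ATF6 went opposite ways there, Mbtps2 at 0.35 (SE 0.06) and Mbtps1 at -0.22 (SE 0.05), while Bax rose (0.56, SE 0.04) and Creb3 rose (0.22, SE 0.06). Where none of a related list was called by edgeR in a direction, DESeq2 also called 0, and 0 had an unadjusted edgeR p under 0.05 there, except for 1 gene of the ER to Golgi list, higher in Klf4 siRNA than in Scramble. The counts of all lists beside those of all genes are drawn in the plot of list shares.

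**Figure D5:**
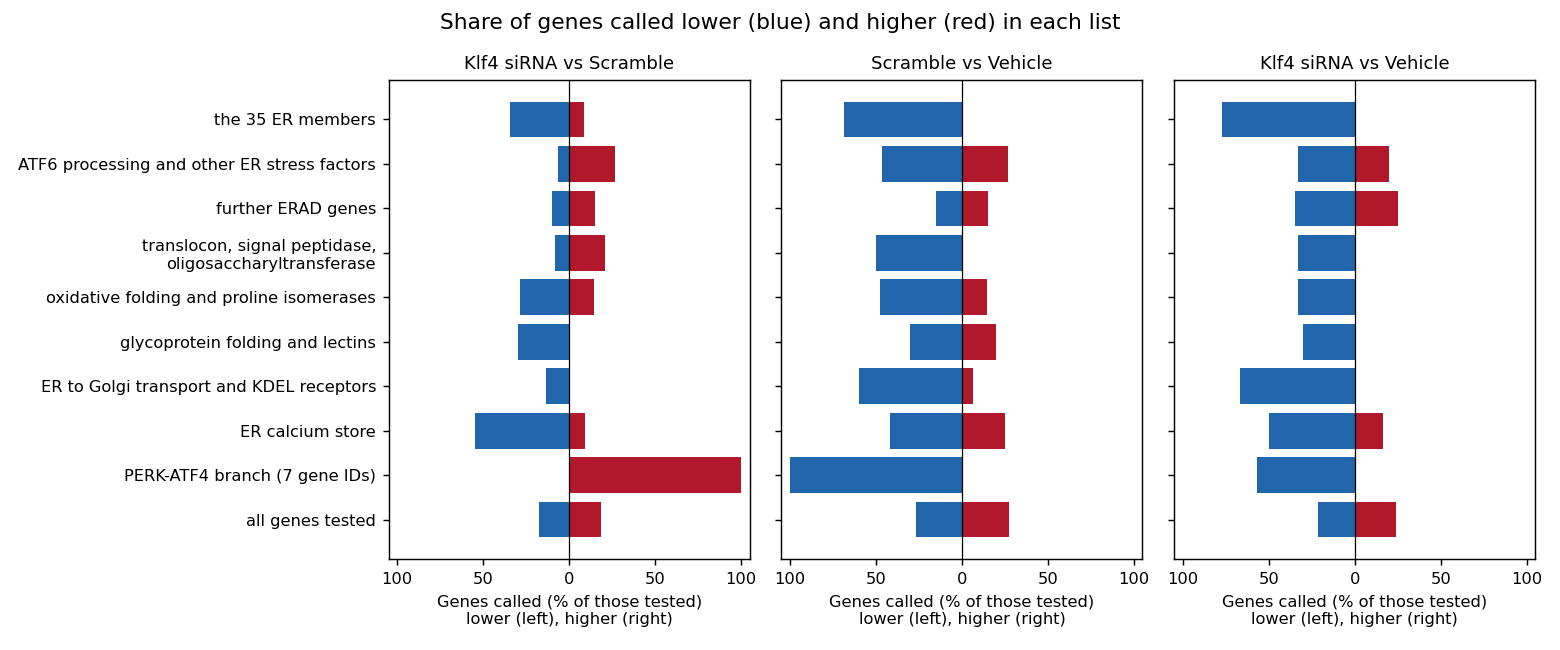
Bars give the percent of tested genes called lower (left of 0) and higher (right of 0) for the 35 ER genes, the 8 related lists and all genes tested, in Klf4 siRNA against Scramble, Scramble against Vehicle and Klf4 siRNA against Vehicle. The 35 ER genes reach far to the left in both comparisons with Vehicle, with 24 and 27 genes lower and none higher, and all 7 gene IDs of the PERK-ATF4 list lie right of 0 in Klf4 siRNA against Scramble and left of 0 in Scramble against Vehicle.

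In the authors' deposited table, 24 of the 35 genes had a lower value at an FDR under 0.05 in Scramble than in Vehicle and 27 in Klf4 siRNA than in Vehicle, with none higher in either. For Klf4 siRNA against Scramble, the authors' deposited table gave 11 lower and 2 higher at that FDR. Over all 12676 genes listed for that pair, 2058 were lower and 2286 higher at that FDR. Of 12638 genes, 3389 were lower and 3522 higher in Scramble against Vehicle. Of 12701 genes, 2650 were lower and 3047 higher in Klf4 siRNA against Vehicle. Of the authors' own up and down marks in the deposited table, 7 members were marked lower in Klf4 siRNA against Vehicle, 6 in Scramble against Vehicle and 0 in Klf4 siRNA against Scramble. Over all genes listed, 336 of 12701, 326 of 12638 and 143 of 12676 were marked lower in these comparisons, in that order. In Klf4 siRNA against Vehicle, Calr (-1.01) was marked, while Creld2 (-0.906, authors' FDR 2.94e-33) was not.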

How the data were processed

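RNA-seq of 12 GT1-7 samples, grouped by title, was analysed. The library kit, Takara SMART-Seq Ultra Low Input per the labels' protocols, does not mark strand. The submitters' processing notes name the build mm10 and the tools STAR, STAR-Fusion, Subread, FastQC and edgeR, with roles and versions not given in the sources used here. For every pair of groups the authors deposited 1 table, which per the file headers holds raw counts and RPKM values for each sample, a log2 fold change, p-values with FDR values, and a score that marks their calls. Counts and RPKM values of a gene were identical in all tables that list it.

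The deposited counts were tested in R 4.3.3 with edgeR 4.0.16 (limma 3.58.1), by filterByExpr, which all 35 members passed, TMM scaling and quasi-likelihood tests on the 8 samples of a comparison, with Benjamini-Hochberg adjustment over all genes tested. An adjusted p is of this kind unless DESeq2 (1.42.0) is named. SE is the absolute log2 fold change over the root of the F statistic, and 95% intervals are normal ones. Libraries held 25992363 to 39674984 counts, and the common biological variation was 7.3% to 9.01%. The scripts were tested on simulated data. Gene positions are those of GENCODE M21. Alternatives were DESeq2 size factors, no filter, DESeq2, all 12 samples in 1 fit, a replicate block, a 1.5-fold threshold and samples left out.

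Members, lists and naming rule were chosen with earlier results of these data known. Values in every sample are given for Klf4, Hspa5, Hsp90b1, Xbp1, Herpud1, the 3 sensors and up to 8 called members per comparison with the smallest p, and of each related list up to 4 called genes per comparison could be named. Canx, whose values are also given in full, was added after its values were seen.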

Additional observations from a re-analysis of the deposited data

Results flagged for a closer look

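In 108 groups of 4 samples, 1 sample stood apart from the other 3 in 4 cases, by its gap to the nearest relative to the whole range, past Dixon's 95% limit, which chance alone passes in about 1 of 20 groups. Syvn1 was low in Klf4 siRNA sample 1, at 56.68 CPM, against 64.03 to 64.93 CPM in the other samples of that group. Dnajb11 was low in Vehicle sample 3, at 490.6 CPM, against 502.3 to 504.7 CPM. Sel1l was low in Vehicle sample 1, at 267.6 CPM, against 295.3 to 300.5 CPM. Atf6 was high in Vehicle sample 2, at 48.81 CPM, against 42.4 to 42.75 CPM.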

How the results depend on the processing

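Of the members called, 11 of 15 in Klf4 siRNA against Scramble, 23 of 24 in Scramble against Vehicle and 26 of 27 in Klf4 siRNA against Vehicle kept direction and call under all settings run other than the fold threshold (14, 13 and 14 settings). Leaving out 1 sample at a time gave 1 to 3 members called higher and 10 to 14 lower in Klf4 siRNA against Scramble, 23 to 25 lower in Scramble against Vehicle, and 0 to 1 higher and 26 to 27 lower in Klf4 siRNA against Vehicle. Of all genes, 3531 to 4634, 6085 to 6755 and 4899 to 5654 were called in either direction there, in the same order. Correlations of same-numbered samples, taken after removing the group means, ran from -0.27 to 0.24. With 4 samples per group, these values cannot settle whether the replicate numbers pair the samples. With the replicate block, 1 member was called higher in Klf4 siRNA against Scramble in place of 3, the only count of member calls it moved by over 1.5 times. With a threshold of 1.5-fold added, 0 members were called higher and 0 lower in Klf4 siRNA against Scramble (900 of all genes), 15 lower in Scramble against Vehicle (1752 of all genes) and 17 lower in Klf4 siRNA against Vehicle (1684 of all genes). Signs turned only for members that were not called. Without Klf4 siRNA samples 1 and 4, Sec61b was 0.0504 and Atf6 -0.0805 in Klf4 siRNA against Scramble. Leaving out 1 sample turned Sil1 (-0.0064 to 0.0547, without Klf4 siRNA sample 1) and Atf6 (-0.0401 to 0.0890, without Klf4 siRNA sample 4) in Klf4 siRNA against Scramble. It turned Hyou1 (-0.0614 to 0.0286, without Scramble sample 4 or Vehicle sample 2) and Edem1 (-0.0422 to 0.0176, without Scramble sample 1 or 4 or Vehicle sample 1) in Scramble against Vehicle. It turned Canx (-0.0778 to 0.0189, without Klf4 siRNA sample 2) and Edem2 (-0.0492 to 0.0258, without Klf4 siRNA sample 3 or 4 or Vehicle sample 2 or 4) in Klf4 siRNA against Vehicle. The cause was not tested.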
